A study of Homo sapiens with 6 samples.

Results

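Semaphorins, plexins and neuropilins were taken as all genes whose symbol in the platform's probe annotation starts with SEMA and a digit or with PLXN, or is NRP1 or NRP2. The rule found 31 of 19775 genes, namely 20 semaphorins, 9 plexins and 2 neuropilins, with 85 of 54613 probe sets. A probe set is a group of short DNA probes on the array that are read together as 1 value, and 24 of the 31 genes had more than 1 probe set. One further probe set carries the symbol of SEMA3B together with that of a microRNA and was not counted. The family was proposed because SEMA6A was higher after cortistatin A in these same arrays, so the values of that comparison are given as a description of the family and support nothing beyond it.

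The cells were MOLM-14, an established human line grown from acute myeloid leukaemia that carries the MLL-AF9 rearrangement. The control group received the solvent dimethyl sulfoxide (DMSO) for 3 h, and the treated group received 25 nM cortistatin A (CA) for the same time. This steroidal alkaloid blocks CDK8 and CDK19, the kinases of the Mediator complex that links transcription factors to RNA polymerase. Both groups were the same cells in the same medium, plated at 500000 to 800000 cells per mL, with 3 samples each and 1 Affymetrix U133 Plus 2.0 array a sample. The data describe 1 cell line, 1 dose and 1 time, and the labels name wells plated in triplicate, so the spread between samples may be technical.

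Semaphorins are extracellular guidance cues that share the sema domain. Those of class 3 are secreted in vertebrates, those of classes 4, 5 and 6 span the membrane, and SEMA7A is held at the cell surface by a lipid anchor. Plexins are their receptors and carry a cytoplasmic domain that switches off small GTPases of the Ras family, which loosens adhesion and remodels the actin cytoskeleton. Neuropilins have no such domain and serve as co-receptors, for most class 3 semaphorins with A plexins and also for vascular endothelial growth factors. In leukocytes, semaphorins and plexins are known for roles in migration and in contacts between immune cells.

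All values are log2 RMA values, on which a step of 1 is a doubling. The precision is limited by the 6 arrays. All CA arrays lay above all DMSO arrays at 8.96% of all probe sets, and below them at 6.55%. Array medians lay between 5.03 and 5.08 and correlations between arrays between 0.996 and 0.998. Mean values of 8 of 9 measured myeloid markers lay above the median probe set at 5.05, among them PTPRC, FLT3 and LYZ. The same held for 3 of 7 lymphoid and 5 of 5 erythroid and megakaryocytic markers. It also held for 4 of 7 epithelial and fibroblast and 5 of 7 endothelial and neural ones. This level thus does not separate cell types. Of the markers of lymphoid, erythroid and megakaryocytic, epithelial and fibroblast, and endothelial and neural cells, PECAM1, which myeloid cells also carry, was the one past the threshold (1.33-fold higher in CA, adjusted p = 0.0153 in limma). The array of CA replicate 3 stood apart, at 33.8 on the first principal component against -12.8 to 6.44 for the others. The difference between its 3′ and 5′ ACTB control probe sets was 3.01, against 3.20 to 3.28 on the others. For GAPDH this difference was 0.93 on this array, within the 0.91 to 0.98 of the others. The part of this array in the results was not tested, and values without it are given beside the changes of several named members.

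SEMA6A, a transmembrane semaphorin that binds PLXNA2 and PLXNA4, was the one family gene past the threshold, which was an adjusted p under 0.05 in limma over all probe sets. At probe set 225660_at, the probe set used for the gene, the DMSO arrays read 6.16, 6.26 and 6.08 and the CA arrays 7.28, 7.43 and 6.96. The lowest CA array lay above the highest DMSO array by more than the spread within either group. The means were 6.17 ± 0.09 and 7.22 ± 0.24 (SD, n = 3 each), a 2.07-fold rise with a 95% confidence interval of 1.70 to 2.53. Without CA replicate 3 the log2 change was 1.18 instead of 1.05.

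A second SEMA6A probe set, 223449_at, read 6.30, 6.19 and 6.21 in DMSO and 6.90, 6.77 and 6.83 in CA. It had the tightest groups of the 5, with SDs of 0.06 in both, and a 1.51-fold rise (1.37 to 1.68). The third, 215028_at, was dim, meaning that its mean lay below the median of all probe sets. It read 3.48, 3.57 and 3.58 in DMSO and 4.32, 4.12 and 3.95 in CA. Its groups did not overlap and its log2 change was 0.59 ± 0.10 (SE), but it did not pass the threshold. Without CA replicate 3 the change was 0.68.

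The remaining 2 probe sets of SEMA6A showed no such separation. Probe set 220454_s_at read 4.72, 4.81 and 4.82 in DMSO and 4.73, 4.80 and 5.05 in CA, with a log2 change of 0.08 and a confidence interval of -0.14 to 0.30. Without CA replicate 3 this change was -0.02. Probe set 1558338_at read 5.06, 5.02 and 4.50 in DMSO and 4.68, 4.88 and 4.77 in CA, with a log2 change of -0.08 (-0.44 to 0.28). Its DMSO replicate 3 lay apart from the other two, and without it the change was -0.26. Both were dim, and their groups overlapped. The intervals of these 2 lie below the values estimated at the other 3 probe sets. The sources used here do not give where each probe set lies on the transcript.

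**Figure D1:**
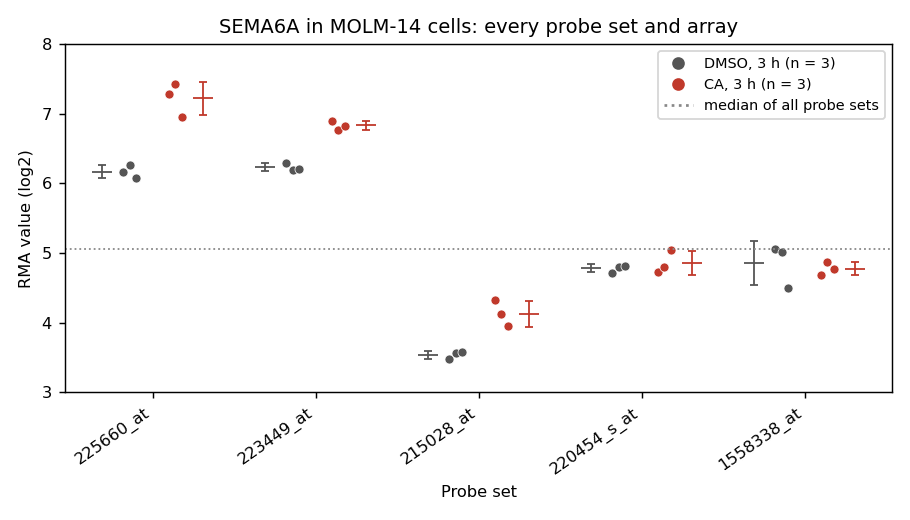
RMA value (log2) of each SEMA6A probe set on every array, with points for single arrays, bars for the mean and SD of each group of 3, and a dotted line at the median of all probe sets, 5.05. The 3 CA arrays lie above the 3 DMSO arrays at 225660_at, 223449_at and 215028_at, and the groups overlap at 220454_s_at and 1558338_at.

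The SEMA6A probe sets that separated the groups were also set against each other within each array. The value of 225660_at minus that of 223449_at on the same array was -0.14, 0.07 and -0.13 in DMSO and 0.38, 0.66 and 0.13 in CA. All CA arrays lay above all DMSO arrays, and the mean moved from -0.07 ± 0.12 to 0.39 ± 0.26 (SD, n = 3). By contrast, 223449_at minus 215028_at was 2.69 ± 0.11 in DMSO and 2.70 ± 0.16 in CA. The mean difference thus moved by 0.45 between the groups for the first pair and by 0.01 for the second. The probe sets were picked and ordered by their change in these same arrays. The upward direction of both shifts was therefore fixed in advance, and nothing is read from it. RMA compresses differences of dim probe sets such as 215028_at, while 225660_at and 223449_at were not dim. For both pairs the values describe the probe sets and do not compare changes of transcripts.

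None of the other class 6 semaphorins had a probe set whose groups were separated. SEMA6D, which binds PLXNA1, had 5 probe sets, all dim, with log2 changes between -0.15 and 0.10. Its probe set furthest from 0, 233801_s_at, read 4.85, 4.99 and 4.96 in DMSO and 4.76, 4.59 and 5.0 in CA, and the groups overlapped. Its confidence interval ran from -0.40 to 0.10, and the change was -0.26 without CA replicate 3 and -0.05 without CA replicate 2. SEMA6B had changes of -0.06 to 0.01 at 3 probe sets, the widest interval being -0.33 to 0.32 at 223567_at, and SEMA6C a change of -0.11 at 1. Of the 14 probe sets of the class, 2 passed the threshold upward, where 0.212% of all probe sets did, and both belong to SEMA6A. No test of SEMA6A against the other members was made, since it was chosen for its change.

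Among the secreted class 3 semaphorins, no probe set of the 13 passed in limma, and 1 had an unadjusted p under 0.05 with a higher CA mean, where 4.91% of all probe sets did. This was 206805_at of SEMA3A, the ligand of NRP1 with A plexins. It read 5.63, 5.68 and 5.68 in DMSO and 6.01, 5.91 and 5.77 in CA. The groups did not overlap, and the log2 change was 0.23 ± 0.07 (SE), or 0.29 without CA replicate 3. The other SEMA3A probe sets were dim, with changes of -0.07 and -0.09. SEMA3D at 215324_at, also dim, read 3.29, 2.99 and 3.22 in DMSO and 3.00, 2.98 and 2.92 in CA, a log2 change of -0.20 ± 0.09 (SE), with overlapping groups. SEMA3G, a ligand of NRP2, had non-overlapping groups with a change of 0.11. SEMA3B, SEMA3C, SEMA3E and SEMA3F had log2 changes between -0.07 and 0.16, and all but 2 probe sets of SEMA3F were dim.

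The class 4 semaphorins did not pass in limma at any of 12 probe sets. An unadjusted p under 0.05 with a higher CA mean was found for 1, where 4.91% of all probe sets had it. SEMA4D, also called CD100, is carried by leukocytes and signals through PLXNB1 and CD72. At 203528_at it read 6.83, 6.78 and 6.80 in DMSO and 6.96, 6.99 and 6.91 in CA. The groups were tight and did not overlap, and the values correspond to a 1.11-fold higher mean (1.02 to 1.21) that had an unadjusted p under 0.05 only. The second SEMA4D probe set was dim and changed by 0.06. SEMA4B, with 1 probe set, read 6.38, 6.37 and 6.49 in DMSO and 6.15, 6.33 and 6.37 in CA, a log2 change of -0.13 ± 0.08 (SE), or -0.06 without CA replicate 1. SEMA4C, a ligand of PLXNB2, had changes of -0.07 and -0.15, the latter with non-overlapping groups. SEMA4A, SEMA4F and SEMA4G had probe sets on both sides of 0, from -0.21 at 234072_at of SEMA4A to 0.15 at 228660_x_at of SEMA4F.

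SEMA5B, a class 5 semaphorin with thrombospondin repeats, read 7.20, 7.13 and 7.34 in DMSO and 7.02, 6.96 and 7.17 in CA. The log2 change was -0.17 ± 0.08 (SE), or -0.11 without DMSO replicate 3, and the groups overlapped. SEMA5A had changes between -0.13 and 0.09 at 3 probe sets.

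SEMA7A, the anchored ligand of PLXNC1 and of integrins with the beta 1 chain, lay lower in CA at both of its probe sets, without passing the threshold. At 230345_at it read 6.69, 6.71 and 6.93 in DMSO and 6.54, 6.62 and 6.61 in CA, a log2 change of -0.18 ± 0.08 (SE), or -0.11 without DMSO replicate 3. At the dim 210083_at it read 5.06, 5.01 and 4.99 in DMSO and 4.92, 4.94 and 4.94 in CA, a change of -0.09 ± 0.05 (SE). The groups did not overlap at either, as at 6.55% of all probe sets in this direction. The values nearest to each other were closer than the range of the DMSO arrays.

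PLXNC1, the receptor of SEMA7A and a plexin of myeloid cells, was measured by 4 probe sets, none of them dim. The probe set used for the gene, 213241_at, read 9.44, 9.52 and 9.42 in DMSO and 9.71, 9.72 and 9.54 in CA. The groups did not overlap, and the CA mean was 1.15-fold the DMSO mean (1.02 to 1.29), with an unadjusted p under 0.05 but not past the threshold. Without CA replicate 3 the log2 change was 0.26 instead of 0.20. Probe sets 206470_at and 206471_s_at had similar changes of 0.21 and 0.20 with groups that overlapped. The fourth, 235328_at, went the other way. It read 6.25, 6.21 and 5.99 in DMSO and 6.17, 6.0 and 5.74 in CA, a log2 change of -0.18 ± 0.12 (SE). With 1 array left out this change lay between -0.28 and -0.07, the latter without CA replicate 3.

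PLXND1, the receptor of SEMA3E, had 3 probe sets, none dim and none past the threshold. At 212235_at it read 7.89, 7.82 and 7.79 in DMSO and 7.97, 7.97 and 8.06 in CA, a log2 change of 0.16 ± 0.06 (SE) with non-overlapping groups and an unadjusted p under 0.05. The probe set used for the gene, 38671_at, read 9.11, 8.99 and 9.05 in DMSO and 9.17, 9.02 and 9.04 in CA and changed by 0.03. The third, 1563657_at, changed by -0.05.

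The A plexins include the receptors that SEMA6A binds. PLXNA2 at 213030_s_at read 5.0, 5.02 and 5.05 in DMSO and 5.07, 5.23 and 5.12 in CA. The groups did not overlap but lay close to each other, and the log2 change was 0.12 ± 0.06 (SE), or 0.07 without CA replicate 2. PLXNA4 had 4 probe sets, all dim, with changes between -0.21 and 0.01. PLXNA1 had changes of -0.03 to 0.03 and PLXNA3 of -0.22 to 0.08. None of the 13 A plexin probe sets passed in limma, and 0 had an unadjusted p under 0.05, against 4.91% of all probe sets upward and 3.71% downward.

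The B plexins, which bind class 4 semaphorins, had changes near 0 at the probe sets used, of -0.0029 for PLXNB2, 0.0027 for PLXNB1 and -0.0063 for PLXNB3. PLXNB2 at 208890_s_at read 8.43, 8.44 and 8.47 in DMSO and 8.47, 8.45 and 8.40 in CA, with a confidence interval of -0.13 to 0.12. For this probe set a change of 1.09-fold upward lies at the edge of the interval. PLXNB3 at 205957_at read 5.11, 5.24 and 5.09 in DMSO and 5.06, 4.94 and 5.43 in CA, and its interval was wider, from -0.30 to 0.29. Without CA replicate 3 its change was -0.15.

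NRP1, the co-receptor of SEMA3A and of VEGFA, had the largest change after SEMA6A among the probe sets used. At 212298_at it read 5.26, 5.56 and 5.37 in DMSO and 6.12, 6.14 and 5.77 in CA. The groups did not overlap, and CA replicate 3 was the lowest of the CA arrays. The CA mean was 1.53-fold the DMSO mean (1.25 to 1.87). It did not pass the threshold over all probe sets or over all genes. It passed with an intensity trend and a robust prior at both levels, and over genes with array weights. Without CA replicate 3 the log2 change was 0.73 instead of 0.61, and the threshold was again not reached. The other 3 probe sets of NRP1 were dim and changed by 0.03 to 0.07, each with overlapping groups. NRP2, the co-receptor of SEMA3F, had 11 probe sets, of which 9 were dim. Its changes ranged from -0.10 to 0.18 and the groups overlapped at all 11. The lower end, at 219367_s_at, lay between -0.31 and 0.04 with 1 array left out, the lower value being that without CA replicate 3. The probe set used, 1555468_at, read 5.52, 5.31 and 5.52 in DMSO and 5.41, 5.40 and 5.53 in CA.

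**Figure D2:**
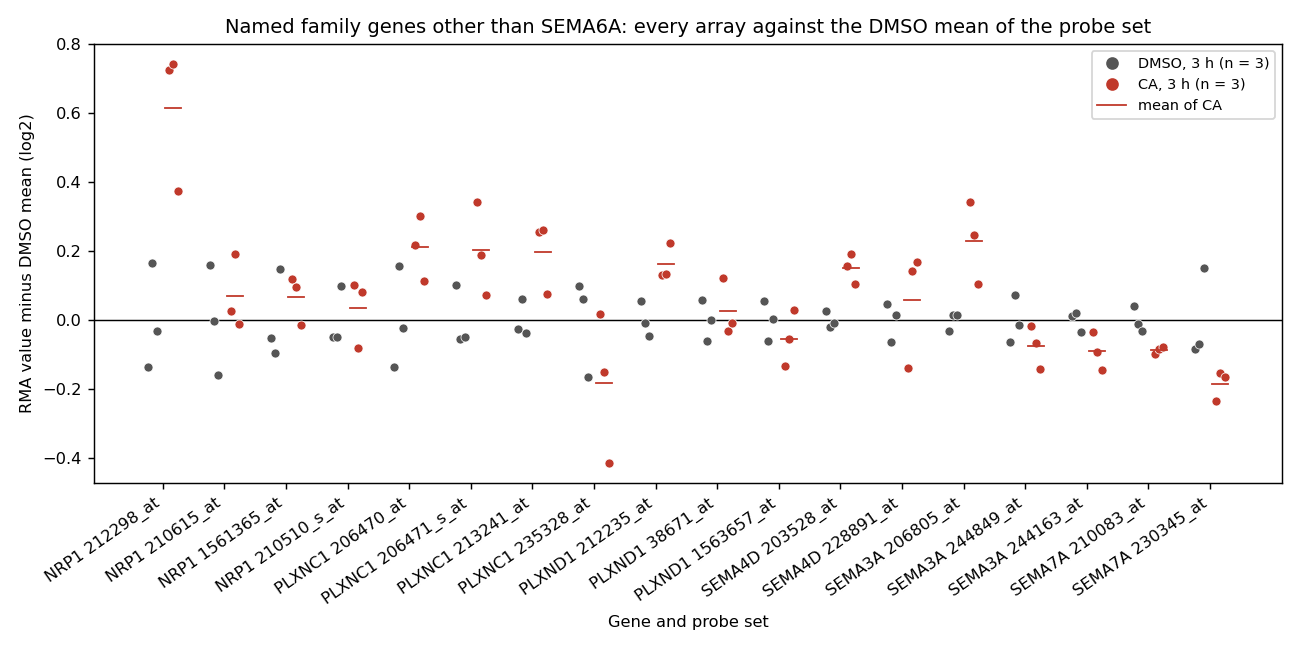
RMA value on every array minus the DMSO mean of the same probe set (log2), for each probe set of NRP1, PLXNC1, PLXND1, SEMA4D, SEMA3A and SEMA7A, with points for single arrays and a red line for the mean of the 3 CA arrays. One probe set of NRP1 lies 0.61 above its DMSO mean, while its other 3 stay within 0.07; the single probe sets of PLXNC1 differ in direction.

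Over the whole family, 2 of 85 probe sets were past the threshold upward and 0 downward in limma. Over all 54613 probe sets, 0.212% passed upward and 0.00732% downward. An unadjusted p under 0.05 was found for 8 family probe sets with a higher CA mean and 0 with a lower one, against 4.91% and 3.71% of all probe sets. Of the 8, 3 belong to SEMA6A. Groups did not overlap at 10 probe sets that were higher in CA and 4 that were lower, against 8.96% and 6.55% of all probe sets. With SEMA6A left out, 7 of 80 were higher in this sense and 4 lower. The family was picked on this comparison, so nothing is read from these counts.

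The median log2 change of the 85 probe sets was -0.0028, with 42 above 0 and 43 below, and that of all probe sets was -0.0011. The median size of the change without its sign was 0.079 in the family and 0.073 over all probe sets. Of the 85, 48 were dim, and 7 of the 31 genes had dim probe sets only, among them SEMA6D, PLXNA4 and SEMA3E. With 1 probe set a gene, SEMA6A alone passed among 31 genes in limma, where 0.839% of all genes passed upward. Downward, 0 family genes passed, against 0.0556% of all genes. An unadjusted p under 0.05 was found for 5 genes with a higher and 2 with a lower CA mean, against 7.09% and 4.5% of all genes.

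**Figure D3:**
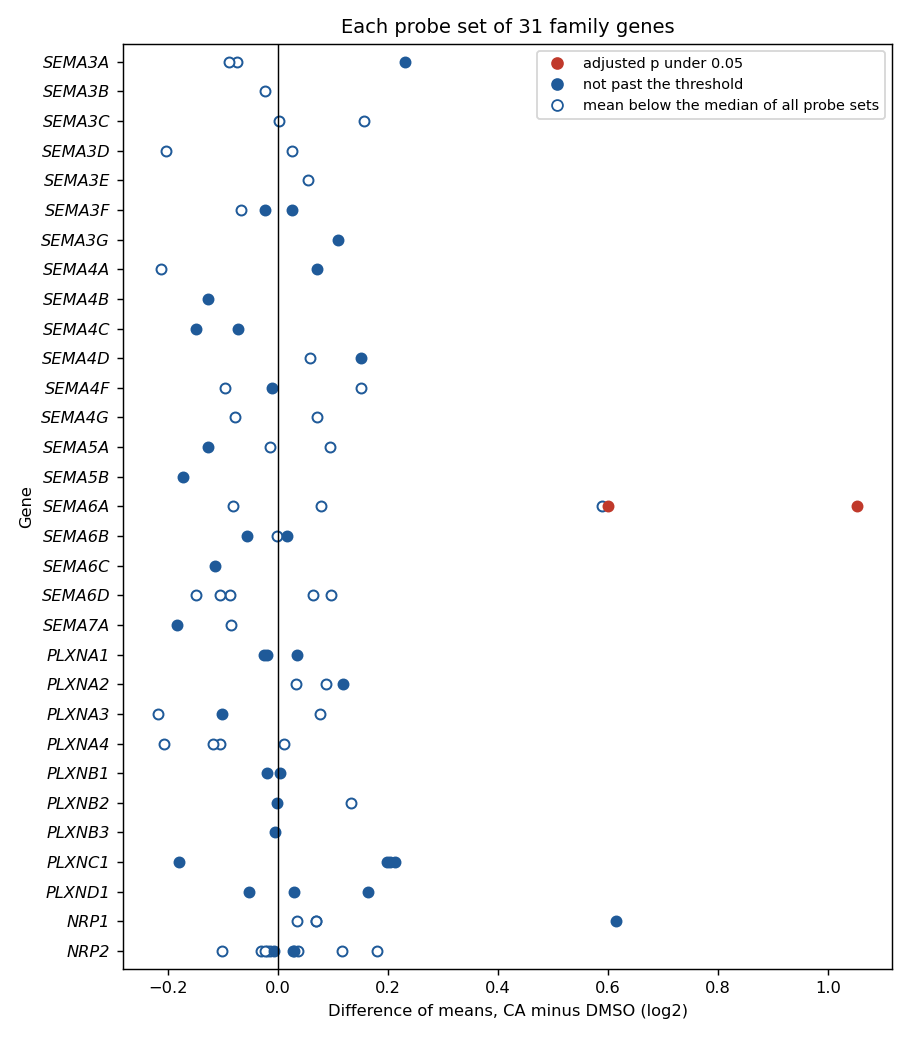
Difference of the group means, CA minus DMSO (log2), for each of the 85 probe sets of the 31 genes, 1 row a gene. Red marks an adjusted p under 0.05 and open symbols mark probe sets whose mean is below the median of all probe sets; apart from 3 probe sets of SEMA6A and 1 of NRP1, the points lie between -0.22 and 0.23.

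Fewer probe sets passed with 1 array left out, whichever array it was, and the reason was not tested. When any 1 of the 6 arrays was left out, 0 of the 85 family probe sets passed in limma. With 1 probe set a gene, SEMA6A passed without CA replicate 3 and did not pass without any other array. The log2 change at 225660_at then lay between 0.95 and 1.18 and that at 223449_at between 0.57 and 0.63. The fit over all probe sets called 120 of them with all arrays and 0 to 6 with 1 left out.

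Genes that act with these receptors were listed apart from the family. The list held 68 co-receptors, neuropilin growth factors, small GTPases and their regulators, kinases, cytoskeletal effectors and proteases, of which 64 were measured. MICAL2, an enzyme that oxidises actin and belongs to a family of plexin effectors, was the one past the threshold upward in limma (adjusted p = 0.0153). Downward, 0 partners passed. Over all genes, 0.839% passed upward and 0.0556% downward. The MICAL2 probe set 212473_s_at read 9.19, 9.13 and 9.15 in DMSO and 9.56, 9.62 and 9.58 in CA, a 1.35-fold rise (1.25 to 1.45). MICAL2 probe sets 212472_at and the dim 236475_at had changes of 0.41 and 0.40 with non-overlapping groups, and 206275_s_at, also dim, had a change of -0.11. With the mean of its probe sets MICAL2 did not pass, and without any single array other than CA replicate 3 it did not pass.

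FURIN, a protease that cleaves semaphorins, read 6.74, 6.80 and 6.89 in DMSO and 7.06, 7.08 and 7.27 in CA, a log2 change of 0.33 (adjusted p = 0.148 in limma). It passed with an intensity trend and a robust prior. FES, a tyrosine kinase that acts downstream of plexin A1, had a change of 0.21 (adjusted p = 0.256 in limma). LIMK2, which phosphorylates cofilin, had a change of -0.19 at the probe set used (adjusted p = 0.174 in limma). At its other probe sets the change was -0.18 and 0.13. At the probe sets used, the DMSO and CA arrays did not overlap for FURIN, FES or LIMK2, while they overlapped at 210582_s_at of LIMK2.

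Among the co-receptors, ERBB2, a partner of B plexins, had a log2 change of -0.26 at the probe set used (adjusted p = 0.366 in limma). At the dim 210930_s_at of ERBB2 the change was 0.04, with overlapping groups. CHL1, an adhesion molecule that pairs with NRP1, and KDR, a receptor for VEGFA, had changes of -0.20 each (adjusted p = 0.193 and 0.422 in limma) and were dim. Of the 64 partners, 4 had a higher and 4 a lower CA mean with an unadjusted p under 0.05, against 7.09% and 4.5% of all genes, so the counts lay near the background. Their median change was 0.01 on the log2 scale, against 0.0037 over all genes. Groups did not overlap for 7 partners that were higher and 9 that were lower, against 11.8% and 7.53% of all genes.

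**Figure D4:**
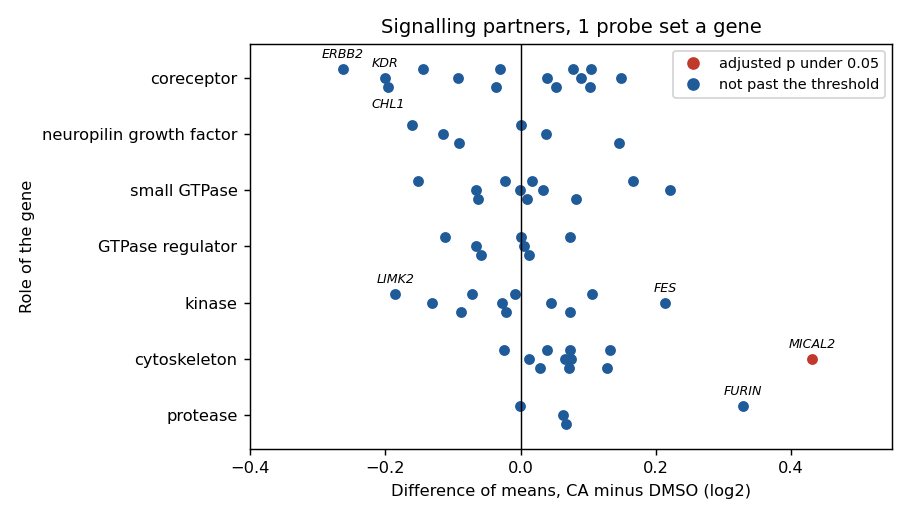
Difference of the group means, CA minus DMSO (log2), of the 64 measured partner genes by role, with 1 probe set a gene. MICAL2 at 0.43 is the one gene past the threshold, and the other genes lie between -0.26 and 0.33.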

How the data were processed

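Each of the 6 arrays has a column of log2 values that the authors deposited. Per the submitters' processing notes they come from RMA in affy. This method makes the distributions of all arrays equal, so a shift common to most genes cannot be seen, and it compresses differences of dim probe sets. The sources used here do not give versions, scan dates or which of 2 named reagents isolated the RNA of which sample. Values were used as deposited, without the 62 control probe sets. Probe sets were named through the platform annotation where it gives 1 symbol (41091 of 54613).

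The CA and DMSO arrays were compared in R 4.3.3 by limma 3.58.1 (a linear model with moderated variances, two-sided, Benjamini-Hochberg over all probe sets, or over 19775 genes with each gene read at its brightest probe set by mean). A feature passed at an adjusted p under 0.05. With 3 arrays a group, 0.1 is the lowest two-sided p of an exact permutation test. The steps were tested on simulated data. The members and lists were chosen with earlier results of these data known. Named were each SEMA6A probe set, members with a probe set at an unadjusted p under 0.05, per role the remaining gene furthest from 0, and of the partners those past the threshold and the 6 with the next smallest p. Alternatives were a replicate block, an intensity trend with a robust prior, array weights, median centring, repeated quantile normalisation, filters on probe sets, single arrays left out, a threshold of 0.01 and the mean of a gene's probe sets.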

Additional observations from a re-analysis of the deposited data

How the results depend on the processing

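Median centring and repeated quantile normalisation left the number of probe sets and genes past the threshold within 1.5 times in the family, among the partners and over all features. With the replicate number as a block, 0 family probe sets, 0 family genes and 0 partners passed, with 1 probe set and 6 genes in the whole table. The labels do not state a pairing. Same-numbered arrays had deviations correlated at 0.081, 0.19 and 0.26. CA replicate 1 correlated as much with DMSO replicate 2 (0.083) as with DMSO replicate 1. The other differently numbered pairs lay between -0.23 and -0.01. Whether same-numbered arrays share an effect was not tested. With an intensity trend and a robust prior, 4 family probe sets, 2 family genes and 2 partners passed, with 740 probe sets and 546 genes in the whole table. With array weights, 2 family genes passed, and 196 probe sets did in the whole table. The count over all genes at this setting is not given here, so the 2 have no background beside them and nothing is read from them. At an adjusted p under 0.01, 0 family probe sets, 0 family genes and 0 partners passed, with 5 probe sets and 25 genes in the whole table. Without dim probe sets, 398 probe sets and 351 genes in the whole table passed, and without _x_at, _s_at and _a_at probe sets 47 and 74. With the mean of a gene's probe sets, 0 partners passed. Without 1 array, 0 family probe sets, 0 to 1 family genes and 0 to 1 partners passed, with 0 to 6 probe sets and 1 to 112 genes in the whole table. No alternative reversed the direction of a SEMA6A probe set past the threshold. Dim means only a mean below the median of all probe sets, and no detection limit was estimated here. RMA compresses differences of dim probe sets, which limits what 48 of the 85 can show.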

Other observations

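The genes next to SEMA6A and NRP1 in the RefSeq gene order of assembly GRCh38.p14 were looked up after the values were seen. COMMD10, the protein-coding neighbour of SEMA6A on one side, had a log2 change of -0.01 ± 0.06 (SE), and the gene on the other side was not analysed here. ITGB1 and PARD3, the neighbours of NRP1, had changes of -0.03 ± 0.05 and -0.04 ± 0.10 (SE).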
